A study of Mus musculus with 53 samples.

Results

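Undifferentiated Ezh2-null mouse embryonic stem (ES) cells (6 arrays) were compared with wild-type ES cells (7 arrays) at day 0, before the cytokine LIF was withdrawn. The arrays were chosen by their titles, and these 13 are part of 53 arrays in 15 groups. The wild-type arrays are of 3 lines, J1 (replicates 1 and 2), CJ7 (replicates 3 and 4) and E14tg1 (replicates 5 to 7). No title names the line in which Ezh2 was deleted, the part of the gene that was removed or the number of clones, so genotype and line cannot be told apart in any value below. Wild-type and mutant cells had both been grown on feeder fibroblasts, which were depleted by attachment before RNA was taken. Titles number the arrays as biological replicates but do not say whether these were separate cultures, so p-values measure the spread between these samples only. The series addresses the effect of losing a PRC2 subunit on transcription in ES cells. Arrays of both genotypes at days 2, 6 and 8 after LIF withdrawal, and Eed-null arrays at day 0, are given here only beside the day 0 values, but all 53 arrays share the filter, the probe set choice and the estimate of the spread. With the 13 day 0 arrays alone 153 genes passed in place of the 111 given below, and 17 of the 22 named calls were kept.

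Ezh2 is the methyltransferase of Polycomb repressive complex 2 (PRC2), which places methyl groups on lysine 27 of histone H3. Eed and Suz12 are core subunits, Jarid2 and Mtf2 are accessory subunits, and Ezh1 is a second methyltransferase that can take the place of Ezh2. In ES cells the mark lies over CpG-rich promoters of developmental transcription factors that are silent or nearly so, and of a few other genes such as the cell cycle inhibitor locus Cdkn2a.

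Signals are the deposited linear intensities, 1 probe set per gene. Differences are Ezh2-null minus wild type in log2(signal + 32) with their standard error, which understates changes of dim genes. A gene is said to have risen or fallen where limma's adjusted p over all 13796 genes tested was under 0.05. The ES factors were present in all 13 arrays: 8 ES markers summed to 25236 to 28739 in the wild-type arrays and to 27214 to 29603 in the mutant arrays, and 0 of the 8 passed the test. The summed signal of fibroblast markers varied within each genotype. For 10 markers it was 443 to 489 in the wild-type arrays of replicates 1 to 3, 1060 to 1867 in those of replicates 4 to 7, and 466 to 711 in Ezh2-null replicates 1 to 3 and 1446 to 1558 in replicates 4 to 6, against 35245 to 40615 in cultured embryonic fibroblasts. Most of the range in wild type was carried by Col1a1 (3.3 to 237), Col1a2 (76 to 512), Lox (15 to 358) and Fbln2 (18.3 to 394). Lum, Dcn, Postn, Thy1 and Pdgfrb were at 91.8 or less in each of the 13 arrays, and Col3a1 at 122.4 or less. None of these 10 passed or was at 0. Postn was the dimmest, with 1.8 on a mutant array, and Col1a1 reached 3.3 on a wild-type array. In bulk samples such as these, fewer cells of a type and less RNA per cell cannot be told apart.

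Wild-type arrays fell into 2 sets that did not follow the labelled lines. After each gene's mean over the 13 arrays was subtracted, the CJ7 array of replicate 3 correlated with the J1 arrays (r = 0.59 and 0.57 over 9014 genes) and not with the CJ7 array of replicate 4 (r = -0.47), which correlated with the 3 E14tg1 arrays (0.58 to 0.61). In replicates 1 to 3, genes in a stretch of chromosome 6 were lower than in Ezh2-null cells. The stretch holds 4 neighbouring windows of 25 genes, from Rmnd5a to Trh, with median differences of 0.70 to 0.82; the other 355 windows lay between -0.21 and 0.31. The Y-linked gene Eif2s3y gave 60.6 to 105 in replicates 1 to 3, 528 to 579 in replicates 4 to 7 and 361 to 595 in Ezh2-null cells. In wild-type replicates 4 to 7 instead, all 20 windows of chromosome 8 were above Ezh2-null cells, by 0.14 to 0.31. The 11 wild-type arrays of days 2 to 8 had the chromosome 8 excess too (0.16 to 0.28) and no deficit in the stretch (-0.12 to 0.10), including those labelled J1. The leading results are therefore also given against each line or against each of these sets. Whether the CJ7 labels are right cannot be checked here, and each value against J1, CJ7 or every line rests on the labels as given.

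**Figure D1:**
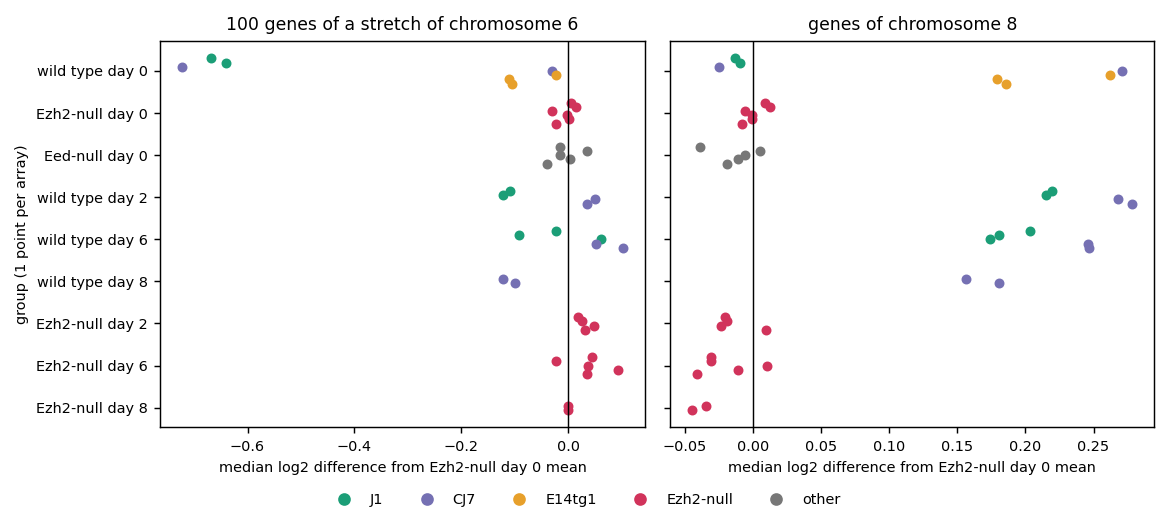
Median log2 difference of each array from the mean of the day 0 Ezh2-null arrays, over 100 genes of a chromosome 6 stretch (left) and over the genes of chromosome 8 (right); each point is 1 array, coloured by labelled line or genotype. Wild-type replicates 1 to 3 at day 0 lie at -0.72 to -0.64 in the left panel, and wild-type replicates 4 to 7 at day 0 and all later wild-type arrays lie at 0.16 to 0.28 in the right panel.

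Few genes passed the pooled test between the genotypes at day 0, and fewer still at 2-fold. Of 13796 genes, 111 passed (0.805%), of which 70 rose (0.507%) and 41 fell (0.297%); 1488 had an unadjusted p under 0.05. The median of the risen genes was 1.42-fold and that of the fallen genes 1.44-fold. Only Ezh2, Gm20767, Usp17la and AF067061 fell (0.029%) and Cd99, Otx2 and AU040320 rose (0.0217%) by at least 2-fold. In 260 genes (1.88%) the arrays of the genotypes did not overlap, 66 of them among the 111. Of the 111, 97 also passed in the same direction against wild-type replicates 1 to 3 and 45 against replicates 4 to 7; of all genes, 12.2% passed against the former (8.44% higher, 3.75% lower) and 1.78% against the latter (0.522% higher, 1.26% lower). The count depends on the wild-type arrays: 1642 genes passed against J1 (11.9%), 69 against CJ7 (0.5%) and 115 against E14tg1 (0.834%). Between the wild-type lines, 1871 genes passed for J1 against E14tg1 (13.6%), 313 for J1 against CJ7 (2.27%) and 1 for CJ7 against E14tg1 (0.00725%). Array weights gave 1615 genes, and the line as a random block left 5, which were Ezh2, Gm20767, Usp17la, AF067061 and Smad7. Without wild-type replicate 4, 5, 6 or 7 the count was 196, 170, 179 or 179 (17, 14, 14 or 14 at 2-fold), and without Ezh2-null replicate 3 or 6 it was 73 or 72. The split also moved: 130 rose without wild-type replicate 4 and 36 without Ezh2-null replicate 3. Against J1, 815 and 440 passed without its replicate 1 or 2, and against CJ7, 28 and 532 without its replicate 3 or 4. The E14tg1 count was 28 to 50 without any of its 3 arrays, 74 without Ezh2-null replicate 2 or 6 and 204 without CJ7 replicate 3 or 4.

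Ezh2 itself fell most. Its signal was 1786 and 1531 in the J1 arrays, 1754 and 1337 in the CJ7 arrays and 1369, 1185 and 1198 in the E14tg1 arrays, against 169, 192, 235, 246, 198 and 243 in the Ezh2-null arrays. Every mutant array was below every wild-type array. Ezh2 lies on chromosome 6, outside the stretch described above. The difference was -2.59 ± 0.13, adjusted p = 2.1e-19 (6.01-fold), with -2.79 ± 0.18 against J1, -2.68 ± 0.18 against CJ7 and -2.39 ± 0.16 against E14tg1. A signal of 169 to 246 remained in cells labelled null; whether the probe set lies in the deleted part is not known here.

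The rest of PRC2 did not pass the test. Of 14 core and accessory genes tested, Ezh2 alone fell and 0 rose, where 0.297% of all genes fell and 0.507% rose. The median difference of the list was 0.030 beside 0.0022 over all genes. Eed differed by 0.034 ± 0.12, adjusted p = 0.98, Suz12 by 0.28 ± 0.16, adjusted p = 0.59, and Ezh1 by 0.085 ± 0.085, adjusted p = 0.85. The accessory subunits Jarid2 and Mtf2 differed by 0.17 ± 0.13 and 0.088 ± 0.13 (adjusted p = 0.76 and 0.94), and the histone-binding subunit Rbbp7 by -0.13 ± 0.063. Suz12 gave 1267 and 1035 in the J1 arrays, 1152 and 1733 in the CJ7 arrays and 1512, 1682 and 1798 in the E14tg1 arrays, and 1804, 1879, 1656, 1673, 1674 and 1752 in Ezh2-null cells. Its 3 lowest arrays were wild-type replicates 1 to 3, against which it passed (0.59 ± 0.20, adjusted p = 0.041), while against replicates 4 to 7 the difference was 0.05 ± 0.18. Of 18 genes of Polycomb repressive complex 1, which binds the PRC2 mark, 0 passed; the widest were Bmi1 (0.54 ± 0.22) and Phc2 (-0.42 ± 0.13). Kmt2c, a methyltransferase of histone H3 lysine 4 and so of the opposing trithorax group, rose (0.62 ± 0.12, adjusted p = 0.0032). It was the 1 of 14 genes of H3K27 demethylases and trithorax that did, where 0.507% of all genes rose. Its wild-type lowest, median and highest signals were 253, 343 and 424, and the Ezh2-null ones 436, 558 and 678, with no overlap. In a fit of all probe sets, which also gives the second probe sets named below, its other 3 probe sets gave 0.35, 0.30 and 0.28 and did not pass, and against replicates 4 to 7 Kmt2c had an adjusted p of 0.051. The demethylases Kdm6b (-0.58 ± 0.18) and Kdm6a (0.29 ± 0.14) did not pass when pooled. Against replicates 1 to 3 they did, with -1.07 ± 0.20, adjusted p = 1.1e-04 and 0.85 ± 0.11, adjusted p = 1.7e-07, and against replicates 4 to 7 they differed by -0.21 ± 0.18 and -0.14 ± 0.099. The list of 14 gave 4 rises and 1 fall against the first set and 0 against the second. The PRC1 list gave 1 rise against the first and 1 fall against the second. Of all genes, 8.44% rose and 3.75% fell against the first set, and 0.522% rose and 1.26% fell against the second.

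**Figure D2:**
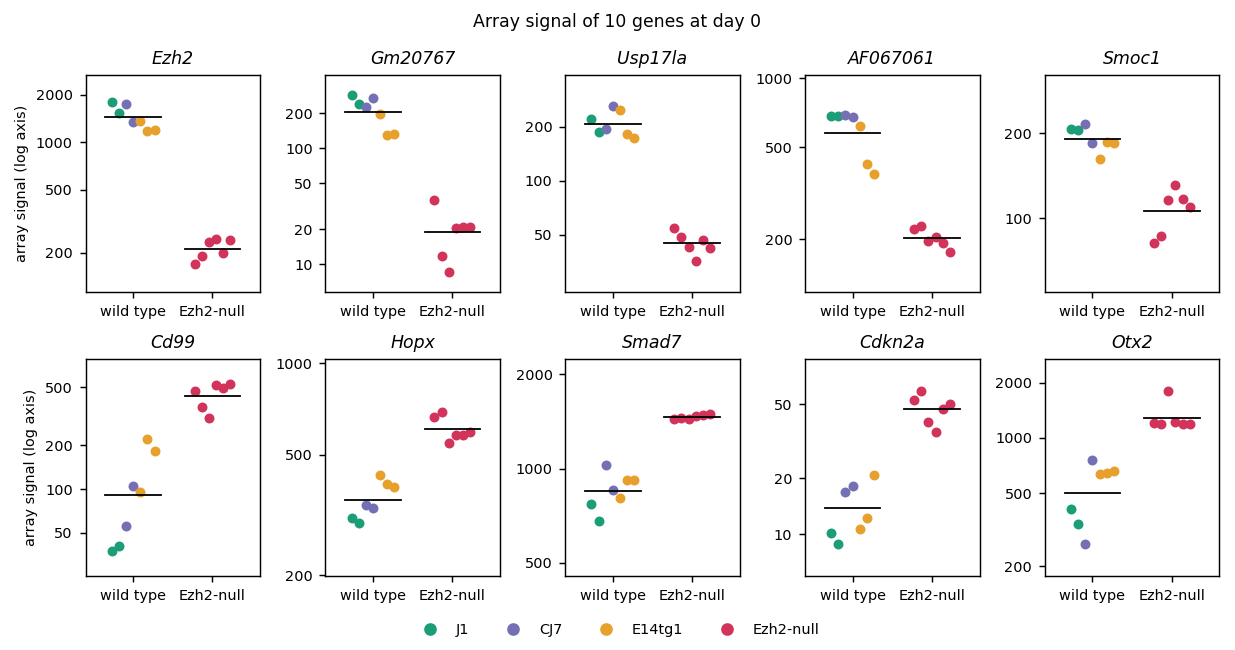
Array signal of 10 genes at day 0 on a log axis; each point is 1 array, wild-type arrays coloured by line, and black bars are group means taken on the log2(signal + 32) scale. In all 10 panels no Ezh2-null array overlaps a wild-type array, and for Otx2 wild-type replicates 1 to 3 (264 to 408) lie apart from replicates 4 to 7 (639 to 755).

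The test against every line asked for a difference of the same sign from J1, CJ7 and E14tg1, with the largest of the 3 p-values taken. It was passed by 7 genes (0.0507%): Cd99 and Hopx were higher (0.0145%), and Ezh2, Gm20767, Usp17la, AF067061 and Smoc1 were lower (0.0362%). Of these, 5 (all but Hopx and Smoc1) differed by at least 2-fold from each line. Gm20767 and AF067061 lie on chromosome 13, Usp17la on 7, Cd99 on 4, Hopx on 5 and Smoc1 on 12. Without E14tg1 replicate 5 the number was 4, and without Ezh2-null replicate 6 it was 8.

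The fallen genes other than Ezh2 were led by 3 genes of the 2-cell list, which holds genes switched on when the embryonic genome is first transcribed and again in a small share of cells of an ES culture. Of its 22 genes, 6 were tested and 4 fell, Gm20767, AF067061, Usp17la and Tcstv1, where 0.297% of all genes fell. The list median was -1.05 beside 0.0022 over all genes. Against wild-type replicates 4 to 7 alone 3 of the 4 fell, where 1.26% of all genes fell. The list was chosen with earlier results of these data known, so its count and median are a description and no independent support. Gm20767 gave 287 and 242 in the J1 arrays, 226 and 273 in the CJ7 arrays and 196, 130.4 and 133 in the E14tg1 arrays, and 35.6, 11.7, 8.6, 20.5, 20.9 and 20.8 in Ezh2-null cells. That is close to the floor of the array in all 6 mutant arrays and well apart from every wild-type array. The difference was -2.22 ± 0.18, adjusted p = 1.6e-11, and -1.84 or lower against each line. Its size depends on the pseudocount, with -3.0 at a pseudocount of 8 and -1.18 at the largest pseudocount tried. Usp17la, a deubiquitinase gene, gave 220.2 and 187 in the J1 arrays, 194 and 259 in the CJ7 arrays and 246, 182 and 172 in the E14tg1 arrays, and 54.9, 48.6, 42.7, 36, 47.1 and 42 in Ezh2-null cells, without overlap (-1.63 ± 0.18, adjusted p = 5.8e-08). Its difference from J1, CJ7 and E14tg1 was -1.61, -1.74 and -1.58. AF067061 gave 685 and 683 in the J1 arrays, 691 and 678 in the CJ7 arrays and 617, 424 and 384 in the E14tg1 arrays, and 222, 228, 196, 204, 193 and 177 in Ezh2-null cells (-1.38 ± 0.14, adjusted p = 2.1e-09). The 2 lowest wild-type arrays, E14tg1 replicates 6 and 7, were still above all mutant arrays, and the difference from E14tg1 was -1.08 ± 0.15, adjusted p = 6.6e-05. Tcstv1 was dim: 79.7 and 63.6 in the J1 arrays, 58.4 and 19.6 in the CJ7 arrays and 17.4, 10.5 and 20.5 in the E14tg1 arrays, and 7.2, 6.1, 11.9, 7.3, 9.3 and 7.6 in Ezh2-null cells. It fell against the pooled arrays (-0.72 ± 0.14, adjusted p = 0.0044) but not against replicates 4 to 7 (-0.28 ± 0.098, adjusted p = 0.15), where 1 of 4 wild-type arrays overlapped the mutants. These genes belong to families of near-identical copies, and the probe sets may read several of them. Pramel18, named after its values were seen, fell as well, from lowest, median and highest signals of 24.4, 41.3 and 68.6 to 8, 14.4 and 24.2 (-0.68 ± 0.15, adjusted p = 0.011).

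Promoter windows of Usp17la and AF067061, which fell together, are shown because in ES cells PRC2 lies mainly at CpG-rich promoters. Each holds 250 bases before and 50 after the annotated start, 5′ to 3′ on the gene's strand, from RefSeq on GRCm38.p6, with CG dinucleotides (the same on both strands) in capitals. Gm20767, Tcstv1, Cd99, Smoc1 and Smad7 have no window in the table used.
Usp17la (chr7:104856766-104857065, plus strand): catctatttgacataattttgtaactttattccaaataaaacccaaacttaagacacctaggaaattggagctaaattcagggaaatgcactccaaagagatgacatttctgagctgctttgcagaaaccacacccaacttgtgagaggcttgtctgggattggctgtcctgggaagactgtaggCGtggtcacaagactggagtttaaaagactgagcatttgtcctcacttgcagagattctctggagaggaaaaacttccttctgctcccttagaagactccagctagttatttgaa
AF067061 (chr13:120262845-120263144, plus strand): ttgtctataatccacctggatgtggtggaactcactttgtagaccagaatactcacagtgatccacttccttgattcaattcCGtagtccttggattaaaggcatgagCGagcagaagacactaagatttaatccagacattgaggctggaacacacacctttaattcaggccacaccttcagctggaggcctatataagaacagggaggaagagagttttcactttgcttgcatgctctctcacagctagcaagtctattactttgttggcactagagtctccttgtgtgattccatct
They hold 1 and 2 CG. Of all 32851 windows, 94.6% hold at least 1 and 85.9% at least 2, and the median is 7. Over the first-listed start of each gene, the median was 20 for the 11065 tested genes with a window. It was 24 for the 29 fallen genes with a window, 8 of which held fewer than 10, so these 2 windows do not stand for the fallen genes.

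Smoc1, which encodes a secreted calcium-binding protein of basement membranes, was lower by less than 2-fold. It gave 208 and 206 in the J1 arrays, 216 and 186 in the CJ7 arrays and 162, 186 and 185 in the E14tg1 arrays, and 82.1, 86.3, 116, 131, 117 and 109.6 in the mutant (-0.70 ± 0.095, adjusted p = 8.4e-06). Ezh2-null replicates 1 and 2 were lowest, and the 2 groups did not overlap. Against the lines it differed by -0.79, -0.75 and -0.60, and the test against every line gave an adjusted p of 0.016.

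Among risen genes the largest change was that of Cd99, a cell surface glycoprotein. It gave 37.8 and 41 in the J1 arrays, 55.4 and 106 in the CJ7 arrays and 95, 220.3 and 183 in the E14tg1 arrays, and 474, 365, 306, 521, 496 and 526 in Ezh2-null cells. All mutant arrays were above all wild-type arrays, but wild-type arrays also spread widely, with J1 lowest and E14tg1 replicates 6 and 7 highest. The difference was 1.94 ± 0.24, adjusted p = 1.2e-06 (3.84-fold), and it was 2.72, 2.11 and 1.31 against J1, CJ7 and E14tg1. Its other 2 probe sets rose by 1.02 and 1.22. With the line as a random block Cd99 had an adjusted p of 0.15.

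Hopx, a homeodomain protein that does not bind DNA itself, also rose against every line. It gave 309 and 298 in the J1 arrays, 340.3 and 332 in the CJ7 arrays and 428, 399.8 and 392 in the E14tg1 arrays, and 663, 691, 546, 582, 580.0 and 592 in Ezh2-null cells. The lowest mutant array was above the highest wild-type array (0.72 ± 0.091, adjusted p = 1.4e-06). The differences were 0.93 from J1, 0.79 from CJ7 and 0.54 from E14tg1, and its second probe set rose by 1.19. With the line as a random block its adjusted p was 0.053.

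Cdkn2a, which encodes the cell cycle inhibitors p16Ink4a and p19Arf and is a known Polycomb target, was close to the floor in wild type and a little above it in the mutant. Its signal was 10.2 and 8.9 in the J1 arrays, 16.9 and 18.1 in the CJ7 arrays and 10.7, 12.2 and 20.9 in the E14tg1 arrays, and 52.9, 58.9, 40.2, 35.7, 47.3 and 50.1 in Ezh2-null cells. The groups did not overlap, and the difference was 0.79 ± 0.17, adjusted p = 0.011, with 0.85 and 0.74 against the 2 wild-type sets (adjusted p = 0.0058 and 0.039). It was the 1 of 8 CDK inhibitor genes that passed, where 0.805% of all genes passed. Cdkn2b, its neighbour, differed by 0.55 ± 0.21, adjusted p = 0.24, with 1.21 ± 0.21, adjusted p = 4.1e-05 and 0.058 ± 0.19 against the sets. Cdkn1a, a p53 target, differed by -0.45 ± 0.17, adjusted p = 0.26, and fell against replicates 4 to 7 alone (-0.68 ± 0.19, adjusted p = 0.045). The list thus gave 2 rises against the first set, where 8.44% of all genes rose. Against the second it gave 1 rise and 1 fall, where 0.522% of all genes rose and 1.26% fell. Both starts of Cdkn2a and of Hopx are shown, again with CG in capitals, since they are risen genes whose starts differ in CpG content.
Cdkn2a, first start (chr4:89294570-89294869, minus strand): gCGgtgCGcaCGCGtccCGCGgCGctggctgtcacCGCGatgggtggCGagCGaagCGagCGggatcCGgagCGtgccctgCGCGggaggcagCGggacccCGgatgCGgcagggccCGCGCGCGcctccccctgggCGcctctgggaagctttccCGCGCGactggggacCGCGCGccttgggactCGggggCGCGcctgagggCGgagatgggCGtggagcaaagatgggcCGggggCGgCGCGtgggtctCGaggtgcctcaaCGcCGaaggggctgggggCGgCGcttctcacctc
Cdkn2a, second start (chr4:89282143-89282442, minus strand): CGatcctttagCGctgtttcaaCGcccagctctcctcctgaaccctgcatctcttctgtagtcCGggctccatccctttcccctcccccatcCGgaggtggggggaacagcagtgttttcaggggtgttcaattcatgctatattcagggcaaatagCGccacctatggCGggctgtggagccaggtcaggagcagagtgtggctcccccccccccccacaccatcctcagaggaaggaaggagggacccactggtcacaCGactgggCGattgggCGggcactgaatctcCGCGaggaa
Hopx, first start (chr5:77115074-77115373, minus strand): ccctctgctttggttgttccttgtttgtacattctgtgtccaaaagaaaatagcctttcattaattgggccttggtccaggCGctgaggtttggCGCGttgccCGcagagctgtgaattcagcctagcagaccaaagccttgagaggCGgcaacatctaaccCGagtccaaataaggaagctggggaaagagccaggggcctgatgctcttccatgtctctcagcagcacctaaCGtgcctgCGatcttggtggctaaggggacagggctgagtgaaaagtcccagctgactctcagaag
Hopx, second start (chr5:77095218-77095517, minus strand): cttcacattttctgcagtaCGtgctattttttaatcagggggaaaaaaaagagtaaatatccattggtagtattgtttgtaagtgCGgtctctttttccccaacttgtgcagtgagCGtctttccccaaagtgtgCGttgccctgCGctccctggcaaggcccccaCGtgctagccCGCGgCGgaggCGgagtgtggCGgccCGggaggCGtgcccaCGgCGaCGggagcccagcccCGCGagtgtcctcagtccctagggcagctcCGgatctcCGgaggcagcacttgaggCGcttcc
The Cdkn2a windows hold 45 and 12 CG and the Hopx windows 8 and 21. Of all 32851 windows, whose median is 7, 1.93% hold 45 or more and 24.8% hold 21 or more. These include windows of genes not tested and several starts for some genes. Which start the probe sets read is not known. Over the first-listed start of each gene, the median was 18.5 CG for the 56 risen genes with a window, 24 for the 29 fallen genes and 20 for the 11065 tested genes with a window. Fewer than 10 CG were found in 12 of the 56, 8 of the 29 and 21.4% of the 11065. Among genes that passed against both wild-type sets, the median was 14 for 13 higher genes (6 under 10 CG) and 23.5 for 10 lower genes (2 under 10 CG).

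**Figure D3:**
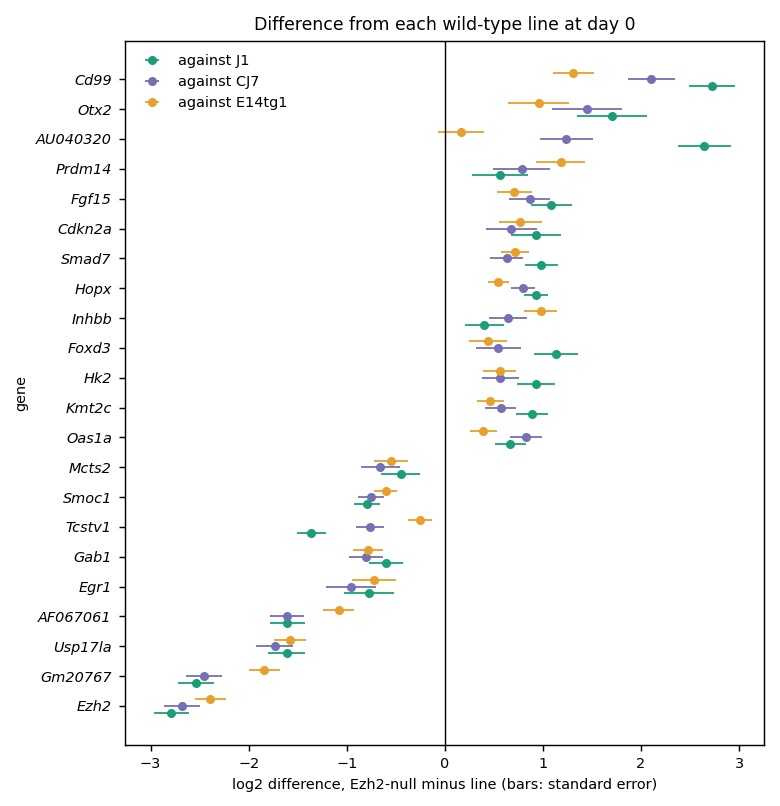
Log2 difference of Ezh2-null cells from J1 (2 arrays), CJ7 (2) and E14tg1 (3) at day 0 for the 22 genes named by the rule that passed against pooled wild type; bars are standard errors. The 3 points of Ezh2, Gm20767, Usp17la and AF067061 lie at -1.08 or lower, and those of AU040320 range from 0.17 to 2.64.

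The core pluripotency factors did not pass. Pou5f1 gave wild-type lowest, median and highest signals of 3803, 4041 and 4499 and Ezh2-null signals of 3801, 4168 and 4557 (0.03 ± 0.17, adjusted p = 0.99). Sox2 differed by 0.045 ± 0.24, adjusted p = 0.99. Nanog was 1478, 1947 and 2035 in wild type and 2239.9, 2286 and 2429 in the mutant. Its arrays did not overlap, yet the difference of 0.31 ± 0.21 did not pass (adjusted p = 0.68). Such standard errors come from the spread within all groups of the series, later days included, and not from the day 0 arrays alone. These tests therefore do not show that the genes were unchanged. Pou5f1, Sox2 and Nanog each passed under 0 of 35 settings, the day 0 arrays alone among them. Their lowest adjusted p from limma was 0.84, 0.76 and 0.057. Over all 13796 genes, 0.507% rose, 0.297% fell and 7001 were above 0, with a median of 0.0022. Of 27 core and naive pluripotency genes, 1 rose and 0 fell, with 23 above 0 and a median of 0.10. The gene that rose was Prdm14, a regulator of the naive state and of primordial germ cells. It gave 214 and 189.5 in the J1 arrays, 266 and 103 in the CJ7 arrays and 91.8, 139 and 134 in the E14tg1 arrays, and 322, 336, 305, 292, 311 and 310.4 in Ezh2-null cells (0.89 ± 0.22, adjusted p = 0.033). Wild-type replicates 4 to 7 were lowest, and the difference from them was 1.22 ± 0.23, adjusted p = 0.0023, whereas from replicates 1 to 3 it was 0.45 ± 0.26, adjusted p = 0.3. Prdm14 no longer passed when wild-type replicate 4, wild-type replicate 5 or any single mutant array was left out (adjusted p = 0.050 to 0.068). Dppa3 (0.55 ± 0.23) and Klf4 (0.40 ± 0.20) did not pass, nor did Pim3 (0.32 ± 0.12), Cish (-0.11 ± 0.085) and Lifr (-0.28 ± 0.24), the leading members of a LIF and STAT3 list of which 0 of 13 passed.

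Of 15 genes of the primed epiblast, the state that follows the naive one in the embryo, 3 rose (Otx2, Fgf15 and Foxd3) and 0 fell, with a median of 0.20, where 0.507% of all genes rose. The count was 8 higher and 1 lower against wild-type replicates 1 to 3, and 1 higher and 1 lower against replicates 4 to 7, beside the shares of all genes given above (8.44% and 3.75%, then 0.522% and 1.26%). Otx2, a homeobox transcription factor, gave 408 and 339.6 in the J1 arrays, 264 and 755 in the CJ7 arrays and 639, 645 and 658 in the E14tg1 arrays, and 1211, 1189, 1809, 1222, 1188 and 1196 in Ezh2-null cells. Each mutant array exceeded each wild-type array, and replicate 3 stood above the other 5. The difference was 1.31 ± 0.32, adjusted p = 0.033, but it missed the threshold against replicates 4 to 7 (0.90 ± 0.36, adjusted p = 0.24) and against E14tg1 (0.96 ± 0.31, adjusted p = 0.15). Fgf15, a fibroblast growth factor ligand, gave 100.3 and 106 in the J1 arrays, 97.9 and 158 in the CJ7 arrays and 157, 145 and 129 in the E14tg1 arrays, and 248, 214, 356, 241, 251 and 233 in the mutant, again without overlap (0.86 ± 0.15, adjusted p = 0.0016). It passed against each line taken alone (adjusted p = 3.0e-04, 0.037 and 0.044) and against both wild-type sets, though not in the test against every line (0.49). Foxd3, a forkhead factor, gave 150.2 and 118 in the J1 arrays, 184 and 255 in the CJ7 arrays and 228, 234 and 246 in the E14tg1 arrays, and 533, 544, 203, 269, 270.4 and 296 in Ezh2-null cells. The difference was 0.67 ± 0.16, adjusted p = 0.034. Mutant replicates 1 and 2 were far above wild type, replicates 4 to 6 just above it and replicate 3 within it, and against replicates 4 to 7 the difference was 0.41 ± 0.18, adjusted p = 0.32. The Foxd3 call was lost without any 1 of wild-type replicates 1 to 3 or of mutant replicates 1, 2 and 6 (adjusted p = 0.051 to 0.13), and that of Otx2 without any 1 of wild-type replicates 1 to 3 or any 1 mutant array (adjusted p = 0.055 to 0.088).

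Signalling genes of the Nodal, BMP, Wnt, FGF and Notch pathways gave 3 rises in 47, Smad7, Inhbb and Fgf15, and 0 falls, where 0.507% of all genes rose; the median was 0.010. Against replicates 1 to 3, 7 rose and 1 fell (8.44% and 3.75% of all genes), and against replicates 4 to 7, 3 rose and 3 fell (0.522% and 1.26%). Smad7, an inhibitory SMAD that blocks signalling by TGF-beta family receptors, gave 774 and 680.1 in the J1 arrays, 1026 and 855 in the CJ7 arrays and 805, 920.1 and 917 in the E14tg1 arrays, and 1441, 1452, 1446, 1469.8, 1488 and 1498 in Ezh2-null cells. The 6 mutant arrays were close together and all above wild type (0.77 ± 0.12, adjusted p = 7.4e-05). It passed against both wild-type sets (0.82 and 0.73) and against J1 and E14tg1, and against CJ7 it had an adjusted p of 0.07. Its second probe set differed by 0.72 (adjusted p = 0.12). Inhbb, a subunit of activin B, gave 553 and 501 in the J1 arrays, 736 and 260.3 in the CJ7 arrays and 267, 378 and 401 in the E14tg1 arrays, and 690.3, 720.4, 529, 760.1, 791 and 785 in the mutant. The difference was 0.72 ± 0.14, adjusted p = 0.0038. CJ7 replicate 3 and J1 replicate 1 overlapped the mutant arrays, and the difference from replicates 1 to 3 was 0.25 ± 0.13, adjusted p = 0.26, against 1.07 ± 0.12, adjusted p = 2.5e-07 from replicates 4 to 7.

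Developmental transcription factors are the class that carries most of the PRC2 mark in ES cells. Members of the Hox list and of the list of other developmental transcription factors did not pass at day 0 against the pooled arrays. Otx2 and Foxd3 are also developmental transcription factors and rose, but were counted with the primed epiblast. Over all genes, 0.805% passed against the pooled arrays, so counts of 0 in lists as short as those below are near that share. Of 22 Hox genes tested 0 passed (median -0.043, range -0.16 to 0.20), and of 57 other developmental transcription factors 0 passed (median 0.0035). The nearest were Meis1 and Meis2, homeobox cofactors of Hox proteins, and Gli2, a Hedgehog effector. Meis1 had lowest, median and highest signals of 3.6, 9.6 and 25.7 in wild type and 36.6, 49.8 and 75.5 in Ezh2-null cells (0.95 ± 0.26, adjusted p = 0.063). Meis2 had 53.8, 77.7 and 80.8 in wild type and 100.3, 137 and 209.6 in the mutant (0.76 ± 0.21, adjusted p = 0.063), and Gli2 differed by 0.41 ± 0.12, adjusted p = 0.072. In all 3 genes the groups did not overlap. Against replicates 1 to 3, Meis1 (1.16 ± 0.33, adjusted p = 0.016) and Meis2 (0.88 ± 0.27, adjusted p = 0.022) rose, and against replicates 4 to 7 they had adjusted p = 0.22 and 0.19. Of the 57, 4 rose and 0 fell against the first set, and 0 rose and 1 fell against the second. Of the Hox genes, 0 rose and 1 fell, then 0 and 0. Beside these and the lineage counts below, 8.44% of all genes rose and 3.75% fell against the first set. Against the second 0.522% of all genes rose and 1.26% fell. Lineage lists, when pooled, gave the same count of 0: 21 endoderm genes (median -0.092), 21 of primitive streak and mesoderm (0.049), 15 of blood and endothelium, 13 of heart and muscle, 23 neural and 15 of trophoblast. Their members with the smallest p included Sox7 (-0.21 ± 0.081) and Lamc1 (-0.24 ± 0.12) of endoderm, Wnt3a (-0.17 ± 0.096) and Tbx6 (-0.13 ± 0.11) of the streak, Pecam1 (0.25 ± 0.11) of endothelium, Gap43 (0.69 ± 0.24) and Zic1 (0.51 ± 0.20) of neural cells, and Ets2 (0.49 ± 0.16) of trophoblast. Against replicates 1 to 3, 3 of the trophoblast genes, 2 of heart and muscle and 1 neural gene rose, and 0 of the endoderm, streak and blood lists. Against replicates 4 to 7, 2 trophoblast genes and 1 each of endoderm, heart and muscle, and neural genes fell. Of all genes that fell against replicates 4 to 7, 41.4% lay on chromosome 8. Gap43, of growing axons, was the neural gene that rose against replicates 1 to 3 (1.53 ± 0.23, adjusted p = 5.0e-06), and it differed by 0.062 ± 0.21 from the second set. Tagln, a smooth muscle actin-binding protein, varied within both genotypes: wild-type replicates 1 to 3 gave 72.4 to 86.4, replicates 4 to 7 1334.6 to 1624, and Ezh2-null cells 620.4 to 843. Its pooled difference of 0.73 ± 0.46 became 2.87 and -0.88 against the 2 sets.

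**Figure D4:**
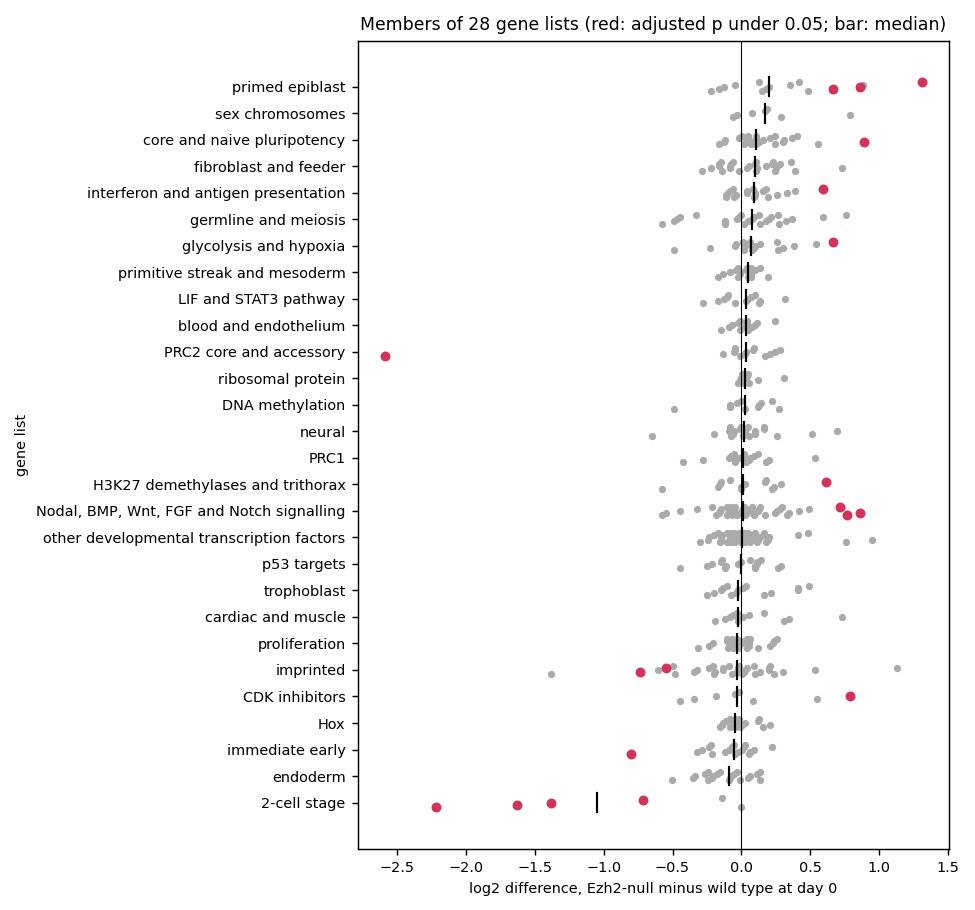
Log2 difference at day 0 of each tested member of 28 gene lists; red points passed at an adjusted p under 0.05, grey points did not, and black bars are list medians. Only the 2-cell list, of which 6 members were tested, has its median (-1.05) far from 0. The other medians lie between -0.092 and 0.20. The lists were chosen with earlier results of these data known, and the filter can favour 2-cell genes that are high in wild type.

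In the imprinted list 2 of 34 genes fell and 0 rose, where 0.297% of all genes fell and 0.507% rose. Gab1, a docking protein of receptor tyrosine kinases, had lowest, median and highest signals of 2112, 2340.4 and 2724 in wild type and 1293, 1387 and 1648 in Ezh2-null cells, and its 3 probe sets fell by 0.56 to 0.76 (-0.74 ± 0.12, adjusted p = 4.6e-04 for the brightest). It passed against each line alone and each wild-type set alone. It lies on chromosome 8, whose windows were higher by 0.14 to 0.31 in wild-type replicates 4 to 7. Its difference was -0.63 ± 0.16, adjusted p = 0.0038 against replicates 1 to 3 and -0.81 ± 0.14, adjusted p = 6.7e-04 against replicates 4 to 7. Mcts2, a retrogene, gave 439, 476, 459, 733, 734 and 714 in the mutant, below all wild-type arrays (791, 846 and 1046), with -0.55 ± 0.13, adjusted p = 0.028. The Mcts2 call was lost without wild-type replicate 3 or any 1 of mutant replicates 1 to 3 (adjusted p = 0.072 to 0.1). Plagl1, a zinc finger protein, gave 19.6 to 36.7 in wild-type replicates 1 to 3, 387 to 633 in the other 4 and 371 to 476 in the mutant. Its pooled difference of 1.13 ± 0.40 did not pass; it was 2.93 ± 0.25, adjusted p = 1.1e-11 from the first set and -0.22 ± 0.23 from the second. In the list, 4 rose and 2 fell against replicates 1 to 3, where 8.44% of all genes rose and 3.75% fell. Against the rest 0 rose and 1 fell, where 0.522% of all genes rose and 1.26% fell. Grb10, a growth inhibitor, differed by -1.38 ± 0.61 and did not pass. Grb10 gave 212, 199, 252, 1581, 1594 and 1575 in Ezh2-null replicates 1 to 6, so replicates 1 to 3 were low and 4 to 6 within the wild-type range of 1003 to 2241.

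Single members of 3 other lists passed, where 0.507% of all genes rose and 0.297% fell. Egr1, an immediate early transcription factor, fell from 542, 687 and 787 to 289.7, 365 and 435 (-0.80 ± 0.20, adjusted p = 0.037), 1 of 19 in its list. That call was lost without any 1 of wild-type replicates 1 to 5 or mutant replicates 3 to 6 (adjusted p = 0.051 to 0.099). Oas1a, which senses double-stranded RNA, rose from 149, 206 and 275 to 258, 326 and 394 (0.60 ± 0.11, adjusted p = 0.0037), with E14tg1 replicate 7 above the lowest mutant array, 1 of 20 interferon and antigen presentation genes. Hk2, a hexokinase, rose from 1024, 1346 and 1615 to 1922, 2077 and 2538 (0.67 ± 0.14, adjusted p = 0.0084), 1 of 20 glycolysis and hypoxia genes. Egr1 and Hk2 did not overlap. Hk2 lies in the chromosome 6 stretch and missed the threshold against replicates 4 to 7 (0.52 ± 0.16, adjusted p = 0.083). In the lists of DNA methylation (11 tested), germline and meiosis (25), p53 targets (17), proliferation (30), ribosomal proteins (13), fibroblast and feeder genes (27) and sex chromosomes (7), 0 passed. Their named members included Dnmt3l (0.27 ± 0.22), Tet3 (-0.49 ± 0.17), Tex19.1 (0.76 ± 0.23, adjusted p = 0.095), Stk31 (0.37 ± 0.13), Mael (0.59 ± 0.22), Sesn2 (0.26 ± 0.14), Cdt1 (-0.31 ± 0.18), E2f1 (-0.21 ± 0.12), Rps6 (0.31 ± 0.11) and Col6a1 (-0.14 ± 0.096). Against replicates 1 to 3, 7 of the 17 p53 targets and 9 of the 27 fibroblast genes rose, where 8.44% of all genes rose; against replicates 4 to 7, 0 rose and 3 and 2 fell, where 1.26% of all fell. Fibroblast marker sums differ between the same sets of arrays, as given above, and their part in these counts was not tested.

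Of the 70 risen genes, 10 (14.3%) lay in the chromosome 6 stretch, which holds 1.06% of the genes tested. They were Fam136a, Pole4, Usp39, Mrpl19, Chmp3, Suclg1, Ptcd3, Rnf181, Immt and Hk2, and 0 of the 10 rose against wild-type replicates 4 to 7. Usp39, a splicing factor, gave 782 and 658 in the J1 arrays, 844 and 1393 in the CJ7 arrays and 1362, 1369.7 and 1386 in the E14tg1 arrays, and 1614, 1592, 1516, 1512, 1467 and 1437 in Ezh2-null cells. Wild-type replicates 1 to 3 were lowest, and the other 4 were close below the mutant (0.50 ± 0.11 pooled and 0.14 against replicates 4 to 7). AU040320 showed the same grouping without lying there: 62.5 and 30.3 in the J1 arrays, 62.5 and 405 in the CJ7 arrays and 369.7, 404 and 411 in the E14tg1 arrays, and 418, 478, 434, 421, 462 and 475 in the mutant (1.18 ± 0.29, adjusted p = 0.034). Its second probe set differed by -0.048, and its difference from replicates 4 to 7 was 0.16 ± 0.14. Its call was lost without any 1 of wild-type replicates 1 to 3 or any 1 mutant array (adjusted p = 0.056 to 0.11). Of the 41 fallen genes 4 lay on chromosome 8, which holds 5.23% of the genes tested. Against wild-type replicates 4 to 7, 174 genes were lower, and 72 of these (41.4%) lay on chromosome 8. Of the 72 genes higher against those replicates, 1 lay there. Falls against those replicates, counted by list above, were not split by chromosome. When genes of the stretch and of chromosome 8 were left out of the fit, 94 passed, 57 higher and 37 lower.

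Both wild-type sets were passed in the same direction by 31 genes (0.225%), 17 higher (0.123%) and 14 lower (0.101%), and all 31 were among the 111. Without wild-type replicate 4, 5 or 6 the number was 16, 18 or 19. Beyond those already described, and chosen after their values were seen, these held Nxt2, an mRNA export cofactor (1.00 ± 0.20; lowest, median and highest signals of 49.2, 96.2 and 136 in wild type and 177, 218 and 256 in the mutant). Wfdc2 (0.71 ± 0.14), Dusp27 (0.69 ± 0.15) and Rfx2, a transcription factor of ciliated and germ cells (0.59 ± 0.088), rose too. So did Syce1 of the synaptonemal complex (0.44 ± 0.099) and Dntt, a DNA polymerase of lymphocytes (0.37 ± 0.065). Lower genes included Mb21d2 (-0.90 ± 0.18), the retinoic acid-binding Crabp1 (-0.80 ± 0.14), Glod5 (-0.73 ± 0.10), Fam78a (-0.58 ± 0.11) and the citrate synthase gene Cs (-0.31 ± 0.065). Crabp1 fell from 115, 132 and 173 to 45.1, 68 and 84.9 and Glod5 from 64.9, 82.3 and 86 to 17.5, 34.3 and 46, and neither overlapped. Cs fell from 1529, 1602 and 1810.1 to 1224, 1299 and 1355, a small change with narrow spread.

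The same genes were read at days 2, 6 and 8 after LIF withdrawal, in arrays that enter the day 0 fit only through the shared filter, probe set choice and spread. Their wild-type arrays are of J1 (2) and CJ7 (2) at day 2, J1 (3) and CJ7 (2) at day 6 and CJ7 (2) at day 8, with no E14tg1, so a change by day and a change of wild-type line cannot be told apart. The mutant arrays differ among themselves too: Eif2s3y was 9.2 to 15 and Uty 5.4 to 13.6 in 4 of them (day 2 replicates 3 and 4, day 6 replicates 4 and 5), against 251 to 589 and 63.0 to 165 in the other 7. Against wild type of the same day, 130 of 13796 genes passed at day 2 (0.942%), 3422 at day 6 (24.8%) and 340 at day 8 (2.46%). Of the 70 genes that rose at day 0, 5 rose at day 2, 21 at day 6 and 12 at day 8, where 0.587%, 12.4% and 1.68% of all genes rose; 4 fell at day 6. Of the 41 fallen genes, 5, 9 and 4 fell at these days, where 0.355%, 12.4% and 0.783% of all genes fell, and 1 rose at day 6. The later wild-type arrays all had the chromosome 8 excess given above. Outside the chromosome 6 stretch and chromosome 8, 5, 20 and 11 of 60 risen genes rose at days 2, 6 and 8. There, 3, 7 and 3 of 37 fallen genes fell. Ezh2 stayed lower, with differences of -2.30, -2.68 and -1.86. Smad7 was higher on each day, with 649 ± 52.6 in wild type against 1093 ± 90.5 in Ezh2-null at day 2 (n = 4 and 4), 704 ± 119 in wild type against 1215 ± 393 in Ezh2-null at day 6 (n = 5 and 5) and 621 ± 6.86 in wild type against 1299 ± 241 in Ezh2-null at day 8 (n = 2 and 2). It passed at each of them (adjusted p = 0.0083, 4.8e-05 and 0.0025). Cd99 differed by 1.36 ± 0.31, adjusted p = 0.019 at day 2, by 1.07 ± 0.27, adjusted p = 0.0029 at day 6 and by 0.58 ± 0.43, adjusted p = 0.68 at day 8.

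Without the 4 mutant arrays of low Y-linked signal, a setting chosen after seeing the data, 535 genes passed at day 2 (3.88%) and 3108 at day 6 (22.5%). Of the genes that rose at day 0, 11 then rose at day 2 and 21 at day 6, where 2.44% and 12.7% of all genes rose, and of those that fell, 7 and 9 fell, where 1.44% and 9.79% of all fell. Smad7 still passed, with 0.78 ± 0.14, adjusted p = 0.0017 at day 2 and 0.40 ± 0.12, adjusted p = 0.014 at day 6. Cd99 missed the threshold at day 2 (1.21 ± 0.39, adjusted p = 0.065), as did Foxd3 (0.31 ± 0.21, adjusted p = 0.32) and Fgf15 (-0.55 ± 0.21, adjusted p = 0.053) at day 6. At day 2, Cdkn2a (1.10 ± 0.25, adjusted p = 0.0092) and Usp17la (0.98 ± 0.26, adjusted p = 0.029) then rose and Mcts2 fell (-0.82 ± 0.15, adjusted p = 0.0015).

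Cdkn2a differed more at days 6 and 8 than at day 0. Its mean signal was 14.7 ± 4.65 in wild type against 51.7 ± 19.9 in Ezh2-null cells at day 2, 42.7 ± 17.5 in wild type against 433 ± 145 in Ezh2-null cells at day 6 and 87.7 ± 18.2 in wild type against 484 ± 100.1 in Ezh2-null cells at day 8 (SD, n as above). The log2 difference was 0.79 at day 0 and 2.62 at day 6, a change of 1.83 ± 0.26, adjusted p = 2.0e-06, and at day 8 it was 2.10. At day 2 it was 0.82 ± 0.22, adjusted p = 0.051.

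With all arrays, Gm20767, AF067061, Usp17la and Tcstv1 did not pass at any of these days. Gm20767 was 69.7 ± 52.6 in wild type against 83.9 ± 9.53 in Ezh2-null cells at day 2, with differences of 0.35 ± 0.23, 0.27 ± 0.21 and 0.16 ± 0.33 at days 2, 6 and 8. AF067061 was 305 ± 1.39 in wild type against 316 ± 76.6 in Ezh2-null cells at day 2 and differed by 0.02 ± 0.17, -0.055 ± 0.15 and 0.02 ± 0.24. For both genes the difference at each later day departed from that at day 0 (adjusted p = 0.0033 or less, and 0.013 for AF067061 at day 2 without the 4 arrays named above). Both were named for their day 0 difference, which is the value subtracted, so these tests lean toward a departure. Usp17la differed by 0.56 ± 0.23, 0.17 ± 0.20 and -0.32 ± 0.32, and Hopx by -0.17 ± 0.12, -0.17 ± 0.10 and 0.045 ± 0.16. Hopx in wild type was 357 ± 49.7 at day 0 and 354 ± 28.4 at day 2, while in Ezh2-null cells it went from 609 ± 55.6 to 315 ± 52.6. Among the others, Inhbb (0.91 and 0.92), Foxd3 (0.52 and 1.36) and Mcts2 (-0.74 and -0.97) passed at days 6 and 8 in the day 0 direction, and Fgf15 (-0.49) and Oas1a (-0.77) passed at day 6 in the opposite one. Gab1 fell at day 2 (-0.77 ± 0.16, adjusted p = 0.0081). It lies on chromosome 8, whose genes were higher by 0.16 to 0.28 in the wild-type arrays of days 2 to 8.

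**Figure D5:**
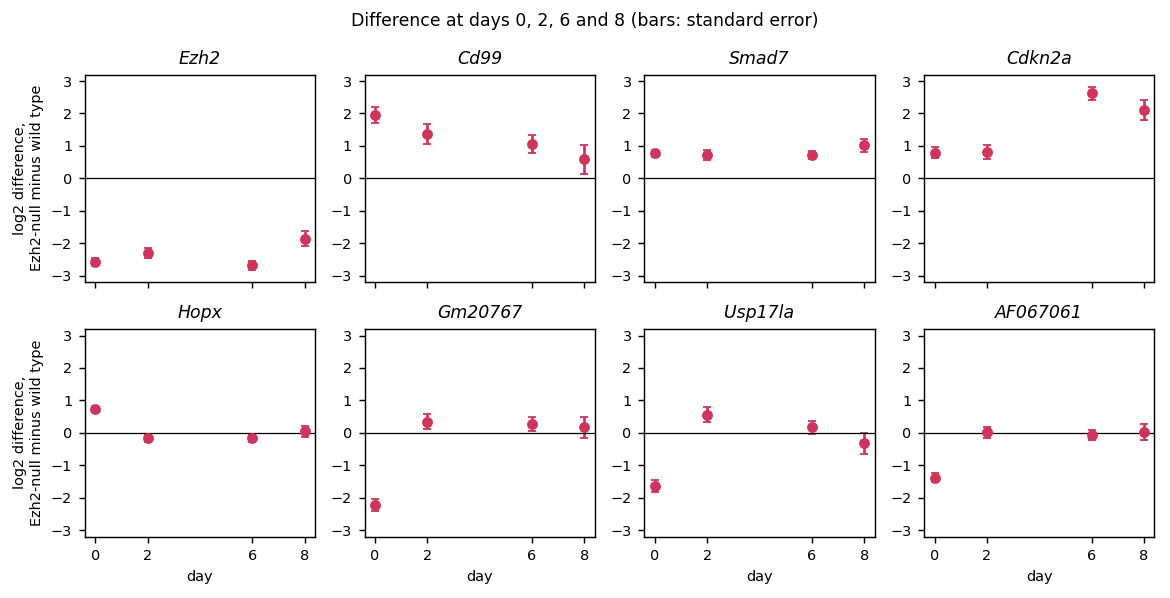
Log2 difference between Ezh2-null and wild-type cells at days 0, 2, 6 and 8 for 8 genes; bars are standard errors. Smad7 stays between 0.72 and 1.02, Cdkn2a reaches 2.62 at day 6, and Hopx, Gm20767, Usp17la and AF067061 passed at day 0 but not at the later days when all arrays were used.

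Eed-null cells at day 0 (5 arrays) were compared with the same 7 wild-type arrays, and 5779 genes passed (41.9%), so the comparisons share their controls and the values are given side by side only. For Gm20767 the difference was -1.59 in Eed-null and -2.22 in Ezh2-null cells, for AF067061 -0.85 and -1.38, and for Usp17la -0.66 and -1.63. Smad7 was higher by 1.03 and 0.77, Cd99 by 1.30 and 1.94, and Kmt2c by 0.66 and 0.62. Hopx differed by 0.39 and 0.72, Smoc1 by -0.30 and -0.70, and Gab1 by -0.70 and -0.74. The values were 1.34 and 1.18 for AU040320, 0.71 and 0.67 for Hk2, 0.65 and 0.60 for Oas1a, and 0.52 and 0.79 for Cdkn2a. They were 0.42 and 0.89 for Prdm14, -0.39 and -0.80 for Egr1, and -0.31 and -2.59 for Ezh2, where the Eed-null values did not pass. Cdkn2a signals in Eed-null replicates 1 to 5 were 111.7, 18.6, 12.7, 30.7 and 28. Replicate 1 stood far above the others, and replicates 2 and 3 lay within the wild-type range of 8.9 to 20.9. Otx2 (-0.81 and 1.31) and Inhbb (-0.48 and 0.72) had opposite signs in the 2 mutants; for Otx2 the Eed-null value did not pass (adjusted p = 0.051). The signs were also opposite for Fgf15 (-0.18 and 0.86), Foxd3 (-0.16 and 0.67), Mcts2 (0.054 and -0.55) and Tcstv1 (0.21 and -0.72), and these Eed-null values did not pass (adjusted p = 0.4, 0.49, 0.79 and 0.25).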

How the data were processed

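Expression was measured on single-colour Affymetrix oligonucleotide arrays from biotin-labelled cRNA, per the labels' protocols. The deposited values are linear signal intensities, 1 per probe set and array, with background correction and summary method not given in the sources used here; array medians were 50.5 to 54.6 in wild-type and 51.8 to 54.1 in Ezh2-null arrays at day 0. How far the deposited values were scaled to each other is not known, and the number of arrays limits the precision.

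Values were analysed as log2(signal + 32), a pseudocount that damps dim probe sets. Of 45037 probe sets, 34945 had 1 gene symbol, 932 had several and 9160 had none; for each of 18193 genes the brightest probe set, by its mean across the 53 arrays, stood for the gene. Genes that exceeded the array median on 2 or more arrays (13796) entered the test, run with limma 3.58.1 in R 4.3.3 (lmFit and eBayes), with 1 mean for each of 15 groups over all 53 arrays, so that all groups share the spread. Tests were two-sided, with Benjamini-Hochberg adjustment over all genes tested. Differences from single lines came from a fit with 19 groups. The test against every line took the largest of 3 p-values. The gene order used for windows came from the RefSeq gene table of GRCm38.p6, and promoter windows from the RefSeq table of the same build; 34741 probe sets matched that gene table. The scripts were tested on simulated data.

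Named genes were Ezh2, Ezh1, Eed, Suz12, Jarid2, Mtf2, Pou5f1, Nanog and Sox2, all genes passing at 2-fold, those passing against every line, and of each list every member that passed and up to 3 with the smallest p. The comparison, gene lists and tests were chosen with earlier results of these data known. Alternatives covered normalisation, pseudocount, filter, probe set choice, array weights, line and replicate blocks, each line, the wild-type and mutant array sets and each array left out.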

Additional observations from a re-analysis of the deposited data

Results flagged for a closer look

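Single arrays stood apart from the others of their group in 18 of the 186 gene and group combinations checked, where chance gives about 1 in 20. Ezh2-null replicate 3 accounted for 7: Otx2 at 1808.6 against 1188 to 1222 in the other mutant arrays, Fgf15 at 355.8 against 214 to 251, Zic1 at 58.0 against 32.2 to 40.5 and Jund at 2506 against 1559 to 1779 were high, and Tagln at 620.4 against 817 to 843, Tex19.1 at 1261.4 against 1927 to 2148 and Inhbb at 528.9 against 690.3 to 791 were low. Other mutant arrays stood apart for Rbbp7 (3388.7 against 3657 to 3787, replicate 4), Rps6 (371.8 against 419 to 435, replicate 4), Fgfr2 (187 against 222 to 241, replicate 1) and E2f1 (262.1 against 401 to 488, replicate 2). Among wild-type arrays, J1 replicate 2 stood apart for Rbbp7 (3395.5 against 3904 to 4334), Tet3 (81.5 against 30.3 to 48.5) and Myh6 (78.5 against 114 to 127), and J1 replicate 1 for Fas (9.2 against 20.0 to 28.9). CJ7 replicate 3 did so for Pim3 (2785.1 against 1798 to 2129) and Mcts2 (1045.5 against 791 to 874), and E14tg1 replicate 5 for Cish (284.3 against 316 to 335).

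For genes that passed at day 0, 18 of 66 tests of a change with the day passed. Each took the log2 difference at a later day minus that at day 0, adjusted over all genes of that day with limma. The genes were chosen by the same day 0 difference that is subtracted. That choice tilts the tests toward a smaller difference later, so the count is a description only. Later wild-type arrays hold no E14tg1, and the share of all genes that passed was not counted. Gm20767 changed by 2.56, 2.48 and 2.38 at days 2, 6 and 8, and AF067061 by 1.40, 1.33 and 1.40. Usp17la changed by 2.19 at day 2 and 1.80 at day 6, and Hopx by -0.89 and -0.89. At day 6, Smoc1 changed by 0.50, Tcstv1 by 0.66, Gab1 by 0.53 and Cdkn2a by 1.83 upward, and Fgf15 by -1.35, Hk2 by -1.01 and Oas1a by -1.36 downward. Cdkn2a changed by 1.31 at day 8.

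Of the probe sets that carry several gene symbols or none in the annotation, which were left out of the gene comparison, 9 passed at 2-fold in a fit of all 29995 detected probe sets (4 of 666 with several symbols and 5 of 4313 with none), and 8 of them were lower in Ezh2-null cells. Over all 29995, 21 passed at 2-fold, 12 of them lower. Those with several symbols were 1443961_at (-2.38), 1457033_at (-2.0), 1444529_at (-1.70) and 1427479_at (-1.58). 1443961_at gave 1374 to 2325 in wild type and 245 to 399 in Ezh2-null arrays. Those with no symbol were 1446989_at (-1.72), 1441150_x_at (-1.64), 1445422_at (-1.31) and 1418701_at (-1.12), and the only higher one, 1436320_at (1.35), which gave 316 to 467 in wild type and 963 to 1235 in Ezh2-null arrays. For 1445422_at the groups overlapped, at 29.7 to 517 and 20.6 to 38.3.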

How the results depend on the processing

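Ezh2, Gm20767, Usp17la and AF067061 passed in the day 0 direction under all 35 settings run for named genes, and Cd99, Fgf15, Hopx, Smoc1 and Smad7 under 34. The only called reversal was Tagln, not called when pooled, at -0.88 against wild-type replicates 4 to 7. The 111 genes became 175 with quantile normalisation, 172 with the mean of all probe sets, 1615 with array weights, 5 with the line as a random block, 1642 against J1, 69 against CJ7, 527 with the lines weighted equally, 642 without E14tg1, 246 and 1683 against wild-type replicates 4 to 7 and 1 to 3, and 50 with Ezh2-null replicates 4 to 6 alone. The 7 genes at 2-fold became 19 with a pseudocount of 8, 11 with array weights, 4 with the line block, 224, 21 and 15 against J1, CJ7 and E14tg1, 18 with equal lines, 50 without E14tg1, 26 and 182 against the 2 wild-type sets, 44 at a 1.5-fold minimum and 11 with Ezh2-null replicates 1 to 3. In the same order of settings, the 70 higher genes became 644 with array weights, 1 with the line block, 1166 against J1, 32 against CJ7, 375 with equal lines, 460 without E14tg1, 1165 against replicates 1 to 3, 46 with Ezh2-null replicates 1 to 3 and 27 with 4 to 6. The 41 lower genes became 80 with quantile normalisation, 70 with mean probe sets, 971 with array weights, 64 with the 13 day 0 arrays alone, 4 with the line block, 476 and 68 against J1 and E14tg1, 152 with equal lines, 182 without E14tg1, 174 and 518 against the 2 wild-type sets, and 23 with Ezh2-null replicates 4 to 6. Array weights also gave 3912, 15 and 2236 genes against J1, CJ7 and E14tg1 and 449 against both sets. The cause of these moves was not tested.

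Leaving out 1 array at a time gave 72 to 196 genes, 5 to 17 at 2-fold, 36 to 130 higher and 29 to 66 lower. Those ranges were 4 to 8 against every line, 440 to 1767 against J1, 28 to 532 against CJ7, 28 to 204 against E14tg1 and 16 to 35 against both sets. The most genes pooled came without wild-type replicate 4 and the fewest without Ezh2-null replicate 6. When a line kept 1 array, that array was assumed to vary like the other groups. With the replicate number as a block, 90 genes passed, 55 higher, 35 lower and 7 at 2-fold; same-numbered arrays correlated by -0.02 to 0.28 over 6 pairs and 2 of 6 best with their own number, so the numbers were not taken to pair the samples. The comparison with wild-type replicates 1 to 3, the sets of mutant arrays, the settings of the single-line and both-set counts and the fit without the chromosome 6 stretch and chromosome 8 were chosen after seeing the data. Dim genes such as Cdkn2a and Tcstv1 lie near the floor of the array, where the pseudocount limits the change that can be read.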

Other observations

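Within the Ezh2-null group, replicates 1 to 3 and 4 to 6 differed for several genes; the labels give no reason to split them, and the values were singled out after they were seen and not tested. The Hox cofactor Meis2 gave 209.6, 209, 156, 102, 100.3 and 119 in replicates 1 to 6, against 53.8, 77.7 and 80.8 as lowest, median and highest in wild type. Mcts2 gave 439, 476, 459, 733, 734 and 714. The summed signal of 5 trophoblast markers was 202 to 249 in wild-type replicates 1 to 3, 1287 to 1818 in replicates 4 to 7, and 633 to 1141 in Ezh2-null cells, and none passed. Krt18, a keratin of simple epithelia, carried that sum (89.3 to 1610.2 in wild type, 507 to 972 in the mutant), and Cdx2, Gata3, Elf5 and Krt7 were at 85.8 or less in each array. Correlations of the arrays' deviations were 0.16 to 0.75 among mutant replicates 1 to 3, 0.61 to 0.69 among replicates 4 to 6 and -0.063 to 0.065 between them, over 9014 genes.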
